A study of Mus musculus with 4 samples.

Results

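Replication-dependent histone genes encode the core histones H2A, H2B, H3 and H4 and the linker histone H1 that package newly copied DNA. All genes whose symbols start with Hist1h, Hist2h, Hist3h or Hist4h were taken, which gave 67 of the 32285 genes counted. They comprised 6 H1, 18 H2A, 18 H2B, 12 H3 and 13 H4 genes. The genes were taken by symbol and not by their measured level, but the set was chosen with earlier results of these data known. The cells in which they are described were chosen by raw counts of other genes, as given below.

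These genes lie in clusters, and 54 members sit on chromosome 13 between positions 21715763 and 23934851 of the mouse build GRCm38. A further 10 lie on chromosome 3, 2 on chromosome 11 and 1 on chromosome 6. As background, their transcription rises in S phase and falls when replication ends. Their mRNAs usually end in a short stem-loop bound by the protein Slbp and carry no poly(A) tail, in contrast to other mRNAs. In blood formation, rapidly dividing progenitors are known as the main producers of such transcripts. Single-cell kits that prime on poly(A) count only the histone molecules they capture, and the share captured cannot be read from the counts.

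Bone marrow was taken 10 weeks after transplantation and single cells were counted with 10x Genomics 5′ chemistry (version 2), in 4 libraries with 1 library per group. All cells were sorted for CD45.2, an antigen that tells donor from host blood cells. In 3 libraries the cells were also sorted for Kit, a receptor of stem cells and progenitors, and came from control, Mll3/4 deleted or Mll3/4SI marrow (the labels do not expand SI). The other library held control cells with low B220, a surface antigen of B-lineage cells. MLL3 and MLL4 are enzymes that methylate histone H3. The labels give neither the strain, alleles, age of the mice nor the number of mice per library. With 1 library per group no difference could be tested, and every interval below is a 95% interval that covers counting error only.

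The stem-loop is shown first because it is the feature that sets these mRNAs apart from others. Of all 16-base stretches in the members' annotated transcripts (GENCODE M21, GRCm38) whose ends pair around a loop, the one shared by most members was taken and searched for in each member, allowing 3 mismatches. It was found in 44 of the 67 members. The loop is in capitals, and the arms on either side of it pair with each other.
Most common form, 26 members, among them Hist1h2ae, Hist1h1e and Hist1h2ac: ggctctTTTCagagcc
H4 form, 7 members, among them Hist1h4d, Hist1h4m and Hist1h4n: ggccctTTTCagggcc
Form of 6 members, among them Hist1h3e and Hist1h3c: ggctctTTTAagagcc
Form of Hist1h4i and Hist2h4: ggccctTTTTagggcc
Each of 3 further forms occurred in 1 member, in Hist1h4a, Hist1h3g and Hist2h2ac.

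Without mismatches, the most common form was present in 29 of 55450 annotated genes (0.0523%), and 26 of the 29 were members. This form was chosen as the one most members share, which favours members in that count. The share of all genes was not computed for matches with mismatches. The annotation differed in how far the transcript runs past the stem-loop. It ended 3 bases after it in Hist1h4m and 31 bases after it in Hist1h4n, but 330 bases after it in Hist1h4i, 770 in Hist1h4d, 1153 in Hist1h1e and 2010 in Hist1h2ac. For the 23 members without a match, the annotated transcript may stop before the stem-loop or hold a form past the 3 mismatches allowed. Hist1h4j and Hist1h4b missed the limit at 4 mismatches. In Hist2h2be, with 2620 annotated bases, the closest stretch had 6. Nothing about the mRNA can be read from the absence of a match.

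Promoters are shown for members that the comparisons below turn on, together with the highly counted Hist1h1b and Hist1h4d. The 150 bases before the start are from RefSeq (GRCm38.p6). Capitals mark 4 motifs. The TATA box was searched as TATAA on the gene's own strand. The other motifs were searched on both strands, and CCAAT therefore also appears as ATTGG. They were CCAAT itself, the octamer ATTTGCAT and the H1 box, whose letters are AAACACA.
Hist1h1b, chr13:21780626-21780775, minus strand: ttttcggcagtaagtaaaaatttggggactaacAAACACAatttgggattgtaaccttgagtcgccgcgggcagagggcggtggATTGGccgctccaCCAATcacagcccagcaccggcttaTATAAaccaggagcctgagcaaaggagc
Hist1h2ac, chr13:23683960-23684109, minus strand: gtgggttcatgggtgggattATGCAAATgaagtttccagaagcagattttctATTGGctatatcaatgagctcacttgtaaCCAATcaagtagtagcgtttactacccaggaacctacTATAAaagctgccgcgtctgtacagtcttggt
Hist1h4d, chr13:23581418-23581567, plus strand: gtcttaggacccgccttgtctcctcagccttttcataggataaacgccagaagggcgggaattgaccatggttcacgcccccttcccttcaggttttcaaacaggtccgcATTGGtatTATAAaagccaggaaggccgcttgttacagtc
Hist1h4m, chr13:21811596-21811745, plus strand: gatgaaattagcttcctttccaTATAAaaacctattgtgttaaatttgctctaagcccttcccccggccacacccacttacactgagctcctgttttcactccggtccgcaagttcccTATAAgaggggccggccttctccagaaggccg
Hist1h4n, chr13:21832198-21832347, minus strand: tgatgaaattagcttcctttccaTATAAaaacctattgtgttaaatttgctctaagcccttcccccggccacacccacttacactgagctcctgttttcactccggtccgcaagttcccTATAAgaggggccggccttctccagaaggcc
Hist1h4i, chr13:22041363-22041512, minus strand: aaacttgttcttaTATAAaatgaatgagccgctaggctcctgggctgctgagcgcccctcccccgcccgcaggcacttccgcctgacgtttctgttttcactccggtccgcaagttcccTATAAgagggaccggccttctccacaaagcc

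The promoters of Hist1h4m and Hist1h4n differed by 2 edits over the 150 bases. That of Hist1h4i differed from either by 45 edits, while Hist1h4d differed from Hist1h4n by 78. RefSeq matched 66 members by name and gave a promoter for 61. TATAA was in 29 of them (47.5%), against 10.6% of 27025 promoters of all genes. CCAAT was in 50 (82.0%, against 25.3%), with all 17 H2A and all 16 H2B promoters but only 3 of 12 H4 promoters among them. The octamer was in 5 H2A and 5 H2B promoters and in no other member's, against 1.02% of all promoters. The H1 box was in 5 of the 6 H1 promoters and in 8 members in all, against 3.50% of all promoters. These matches describe letters in a window and do not show that a factor binds there.

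The libraries held 12205 (control Kit+), 15091 (deleted), 12345 (SI) and 16861 (control B220lo) barcodes, with a median of 11964, 6761, 12148 and 3272 unique molecular identifiers (UMIs, counted molecules) per barcode. After filtering and removal of high doublet scores, 51679 cells of 56502 barcodes remained. Between 694 and 859 barcodes of each library also occurred in another library. Kmt2c and Kmt2d, which encode MLL3 and MLL4, had levels of 51.8 and 20.1 CPM (counts per 1e6 UMIs) in deleted cells. They stood at 58.1 and 24.0 CPM in control Kit+, 62.7 and 20.7 CPM in SI and 144 and 41.0 CPM in control B220lo cells. A 5′ count cannot show a deletion further along the gene.

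Cells were described in 5 groups set by raw UMIs of 1 gene each. These genes were Hlf (at least 1 UMI, a stem-cell transcription factor), Elane (at least 10, neutrophil elastase), Car1 (at least 10, an erythroid carbonic anhydrase), Fcer1a (at least 3, a receptor chain of mast cells and basophils) and Cd79a (at least 3, a B-cell receptor chain). Cells with Cd79a were counted there only, and other overlaps were counted in each group. The control Kit+ library held 2492 Hlf, 4218 Elane, 2285 Car1, 127 Fcer1a and 47 Cd79a cells. The deleted library held 162, 462, 55, 4 and 12591 cells in the same order, the SI library 3235, 3344, 869, 2340 and 28, and the control B220lo library 40, 73, 17, 19 and 10839. Groups under 50 cells are given without a ratio.

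The groups set by 1 gene are not pure cell types. Of the 2492 control Hlf cells, 707 were also Elane cells, and the summed level of 8 granulocyte-monocyte markers in Hlf cells was 17612 CPM, against 45901 CPM in Elane cells. Among Hlf cells, 699 of 3235 in the SI library and 17 of 2492 in the control library were also Fcer1a cells. The threshold cells themselves had similar histone levels on both sides in the Hlf, Fcer1a and Cd79a groups. The summed members stood at 4131 CPM in control cells with 1 Hlf UMI and 3968 CPM with 0, and at 4209 CPM in deleted cells with 3 Cd79a UMIs and 4233 CPM with 2. In the few control cells at the edge of the Elane group they were 3661 CPM with 10 Elane UMIs (35 cells) and 3020 CPM with 9 (34 cells), and at the edge of the Car1 group 2307 CPM with 10 Car1 UMIs (34 cells) and 3853 CPM with 9 (49 cells).

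Over all kept cells the members made up 0.406% of UMIs for control Kit+, 0.625% for deleted, 0.477% for SI and 0.861% for control B220lo cells. These totals mix cell types in very different shares. H1 genes gave the largest part in each of the 14 combinations of group and library with at least 50 cells, from 34.2% to 43.4% of the histone UMIs. H2A genes gave 24.0% to 29.6%, H3 genes 12.8% to 16.4%, H2B genes 9.16% to 11.9% and H4 genes 6.94% to 10.2%.

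A few members carried a large part of the counts. Averaged over the 14 combinations, Hist1h1b, Hist1h1e and Hist1h2ae together held 37.9% of the summed level, 12 members reached 100 CPM, and 8 stayed below 1 CPM. The mean levels were 707 CPM for Hist1h1b, 651 for Hist1h1e, 538 for Hist1h2ae, 238 for Hist1h2ab and 212 for Hist1h1a. The core histone genes Hist2h2ac, Hist1h3e, Hist1h3b and Hist1h3c stood between 123 and 187 CPM. The H4 genes Hist1h4d and Hist1h4h stood at 190 and 64.1 CPM, and the H2B genes Hist1h2bc, Hist1h2bg and Hist1h2bj at 94.9, 63.6 and 63.5. Hist1h2ba, known as a testis-specific H2B gene, was the only member with 0 UMIs in all 4 libraries, which allows up to 0.0215 CPM in the control Kit+ library. Hist1h2aa, the H2A gene beside it, had 1 UMI, and the testis H1 gene Hist1h1t had a mean of 0.186 CPM.

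Within the control Kit+ library the summed members stood at 4394 CPM in Hlf cells, 3581 in Elane cells, 3971 in Car1 cells and 6307 in Fcer1a cells. Elane cells were lowest in each of the Kit+ libraries, leaving aside the 4 deleted Fcer1a cells. The deleted library had 4094 CPM in Hlf, 3553 in Elane, 4152 in Car1 and 6557 in Cd79a cells. The SI library had 5340 CPM in Hlf, 4017 in Elane, 4591 in Car1 and 5498 in Fcer1a cells. The control B220lo library had 9403 CPM in its Cd79a cells and 4609 CPM in its 73 Elane cells. Cd79a cells of control B220lo marrow were thus the highest of the combinations with at least 50 cells, and deleted Elane cells the lowest.

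**Figure D1:**
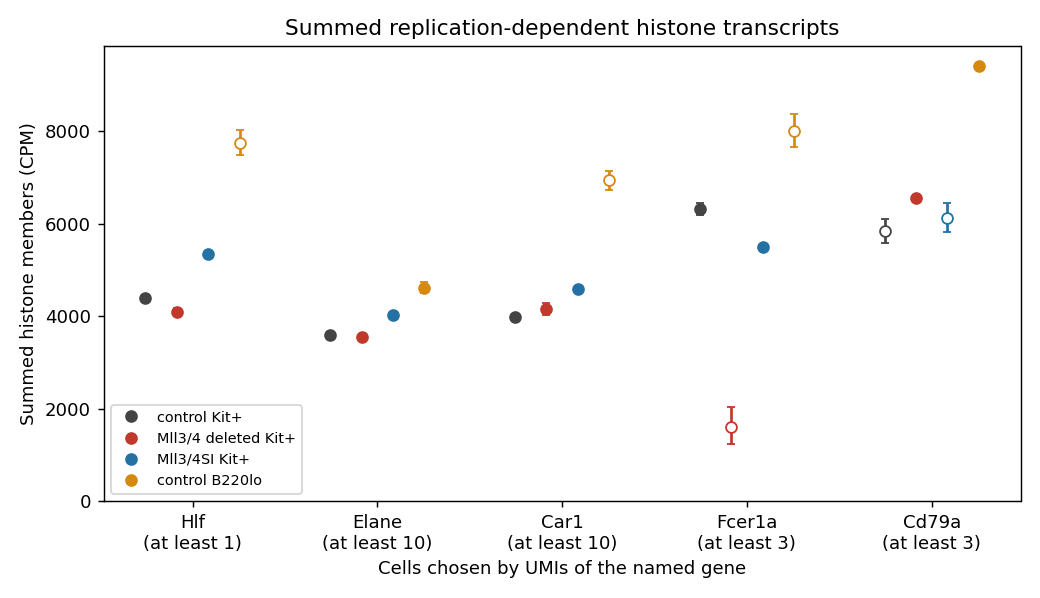
Summed level of the 67 replication-dependent histone genes in CPM (vertical axis) for the 5 groups of cells (horizontal axis) in each library, with 95% counting intervals. Open circles mark groups under 50 cells, which entered no ratio. The SI points lie above the control Kit+ points in Hlf, Elane and Car1 cells and below it in Fcer1a cells.

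In Mll3/4 deleted Kit+ cells the summed histone level was close to that of the control in the 3 groups that could be compared, and single genes stood apart. The ratio of the sum, deleted over control, was 0.932 (0.914 to 0.950) in Hlf cells, 0.992 (0.980 to 1.004) in Elane cells and 1.05 (1.02 to 1.08) in Car1 cells. A member was counted as higher or lower when its level, as log2(CPM + 1), differed by at least 1.5-fold, among genes with a mean of at least 10 CPM over both libraries. In Hlf cells 1 of 43 members was higher and 3 were lower, against 1.58% and 5.13% of all genes compared. With Hlf cells that belonged to no other group, 10 of 47 were lower, against 8.22% of genes. In Elane cells 2 of 41 were higher and 1 lower, against 0.882% and 2.66% of genes. In Car1 cells 7 of 48 were higher and 1 lower, against 2.08% and 4.97% of genes. Of the higher calls, 1 in Elane cells (Hist1h2ac) and 3 in Car1 cells (Hist1h4j, Hist1h2bf and Hist2h2aa1) were below 10 CPM in the control. They passed the limit only through the library where they were high and so had to differ, as did 29.7% and 35.2% of all genes called higher, and these counts support nothing further.

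The linker histone genes were level or slightly lower in deleted cells. Their sum stood at 0.957 (0.927 to 0.987) of control in Hlf cells, 0.949 (0.932 to 0.967) in Elane cells and 0.967 (0.922 to 1.01) in Car1 cells. Within the class, Hist1h1c stood at 162 CPM in control and 110 CPM in deleted Hlf cells, a ratio of 0.681 (0.602 to 0.767) that is just inside the 1.5-fold limit. Hist1h1a lay on the other side, with 155 CPM in control and 182 CPM in deleted Elane cells. The H2B genes of Elane cells summed to 1.17 times control (1.13 to 1.22), led by Hist1h2bc at 58.3 CPM in control and 86.2 CPM in deleted cells.

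Among H3 genes, Hist1h3d stood at 46.2 CPM in control and 27.2 CPM in deleted Hlf cells, and Hist1h3g at 19.5 and 10.7 CPM. In Elane cells Hist1h3d was at 31.7 and 29.7 CPM and Hist1h3g at 17.8 and 18.1 CPM. In Car1 cells Hist1h3g was at 17.5 CPM in control and 59.3 CPM in the deleted library, but 52 of its 67 UMIs there came from 2 of the 55 cells. Without the highest of these cells its level was 30.9 CPM. The low H4 gene Hist1h4j, at 5.16 CPM in control and 15.9 CPM in deleted Car1 cells, rested on 18 UMIs in 10 cells. The other Car1 calls upward were Hist2h2bb (26.0 and 44.2 CPM), Hist1h2bf (7.43 and 15.9 CPM), Hist2h2aa1 (7.98 and 14.2 CPM), Hist1h2ac and Hist1h4i. With 55 cells, most of these Car1 values rest on few molecules.

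B-lineage transcripts were also present in the deleted groups, and most cells of that library carried Cd79a. Where these transcripts came from was not tested. The summed level of 8 B-lineage markers was 175 CPM in deleted Hlf, 129 in Elane and 76.1 in Car1 cells, against 43.2, 52.4 and 7.21 CPM in the control and 12678 CPM in deleted Cd79a cells. In deleted Hlf and Elane cells each of the 8 markers had at least 1 UMI. Markers of other cells differed as well. In Hlf cells, from control to deleted, erythroid markers stood at 863 and 216 CPM, megakaryocyte markers at 319 and 106 CPM, and granulocyte-monocyte markers at 17612 and 23395 CPM. Their part in the histone ratios was not tested.

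In Mll3/4SI Kit+ cells, histone transcripts were higher than in the control in Hlf, Elane and Car1 cells, and the ratio was lowest for the H1 genes and highest for the H4 genes. The ratio of the sum, SI over control, was 1.22 (1.21 to 1.22) in Hlf cells, 1.12 (1.115 to 1.129) in Elane cells and 1.16 (1.146 to 1.166) in Car1 cells. With cells that belonged to no other group it was 1.10, 1.10 and 1.16. The control Kit+ library is the reference here as well as for the deleted library, so both sets of ratios share its counts. In Hlf cells 42 of 46 members compared were above the control level, in Elane cells 38 of 42 and in Car1 cells 41 of 46, against 59.1%, 62.6% and 52.6% of all genes. The median member's log2 difference was 0.33, 0.25 and 0.25, beside 0.03, 0.04 and 0.01 for the median gene. Marker levels of other cell types differed in the same groups. Summed mast-basophil markers stood at 285 CPM in control and 1035 CPM in SI Hlf cells, at 158 and 486 CPM in Elane cells, and at 99.8 and 186 CPM in Car1 cells. Erythroid markers of Hlf cells stood at 863 and 308 CPM. Summed T and NK cell markers stood at 459 and 82.3, 719 and 275, and 96.9 and 18.9 CPM. In deleted Elane cells this sum was 665 CPM with 4 of its 5 genes at 0 UMIs. A single gene can thus carry it, and it need not mark T or NK cells. The part of these marker differences in the histone ratios was not tested.

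The difference was broad but small for single genes, and few members reached 1.5-fold. In Hlf cells 3 of 46 members were higher by that measure and 0 lower, against 2.05% and 1.7% of genes. In Elane cells 2 of 42 were higher and 0 lower, against 1.9% and 1.03% of genes, and 1 of the 2, Hist1h2ac, was below 10 CPM in the control. In Car1 cells 4 of 46 were higher and 0 lower, against 1.27% and 0.698% of genes. Without doublet removal 7 of 46 were higher in Hlf cells, against 2.57% of genes, and 7 of 46 in Car1 cells, against 1.37%.

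By class, the SI over control ratio in Hlf cells was 1.09 (1.07 to 1.10) for H1, 1.24 (1.22 to 1.25) for H2A, 1.32 (1.29 to 1.35) for H2B, 1.31 (1.28 to 1.33) for H3 and 1.48 (1.44 to 1.51) for H4. In Elane cells the ratio was 0.987 for H1, 1.14 for H2A, 1.26 for H2B, 1.25 for H3 and 1.46 for H4. In Car1 cells it was 0.990 for H1, 1.19 for H2A, 1.25 for H2B, 1.37 for H3 and 1.45 for H4. The lowest class was H1 and the highest H4 in each of the 3 groups, with intervals that did not meet. Part of the H4 ratio came from the genes Hist1h4i, Hist1h4m and Hist1h4n described below, and without them the other 10 H4 genes summed to 1.40, 1.40 and 1.34 (1.30 to 1.38) times control. In Car1 cells this was no longer the highest class, as H3 stood at 1.37 (1.34 to 1.40).

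The H1 gene Hist1h1b stood at 600 CPM in control and 657 CPM in SI Hlf cells, at 661 and 635 in Elane cells, and at 636 and 594 in Car1 cells. Hist1h1d was at 205 and 190 CPM in Hlf cells and at 141 and 126 in Elane cells. The H4 gene Hist1h4d was at 158 CPM in control and 232 CPM in SI Hlf cells, at 100 and 151 in Elane cells, and at 139 and 193 in Car1 cells. The H3 gene Hist1h3b was at 93.6 and 154 CPM in Hlf cells, a ratio of 1.64 (1.57 to 1.72), and at 80.2 and 127 CPM in Car1 cells. Hist1h4c, another H4 gene, passed 1.5-fold in Car1 cells, at 24.3 and 39.5 CPM.

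**Figure D2:**
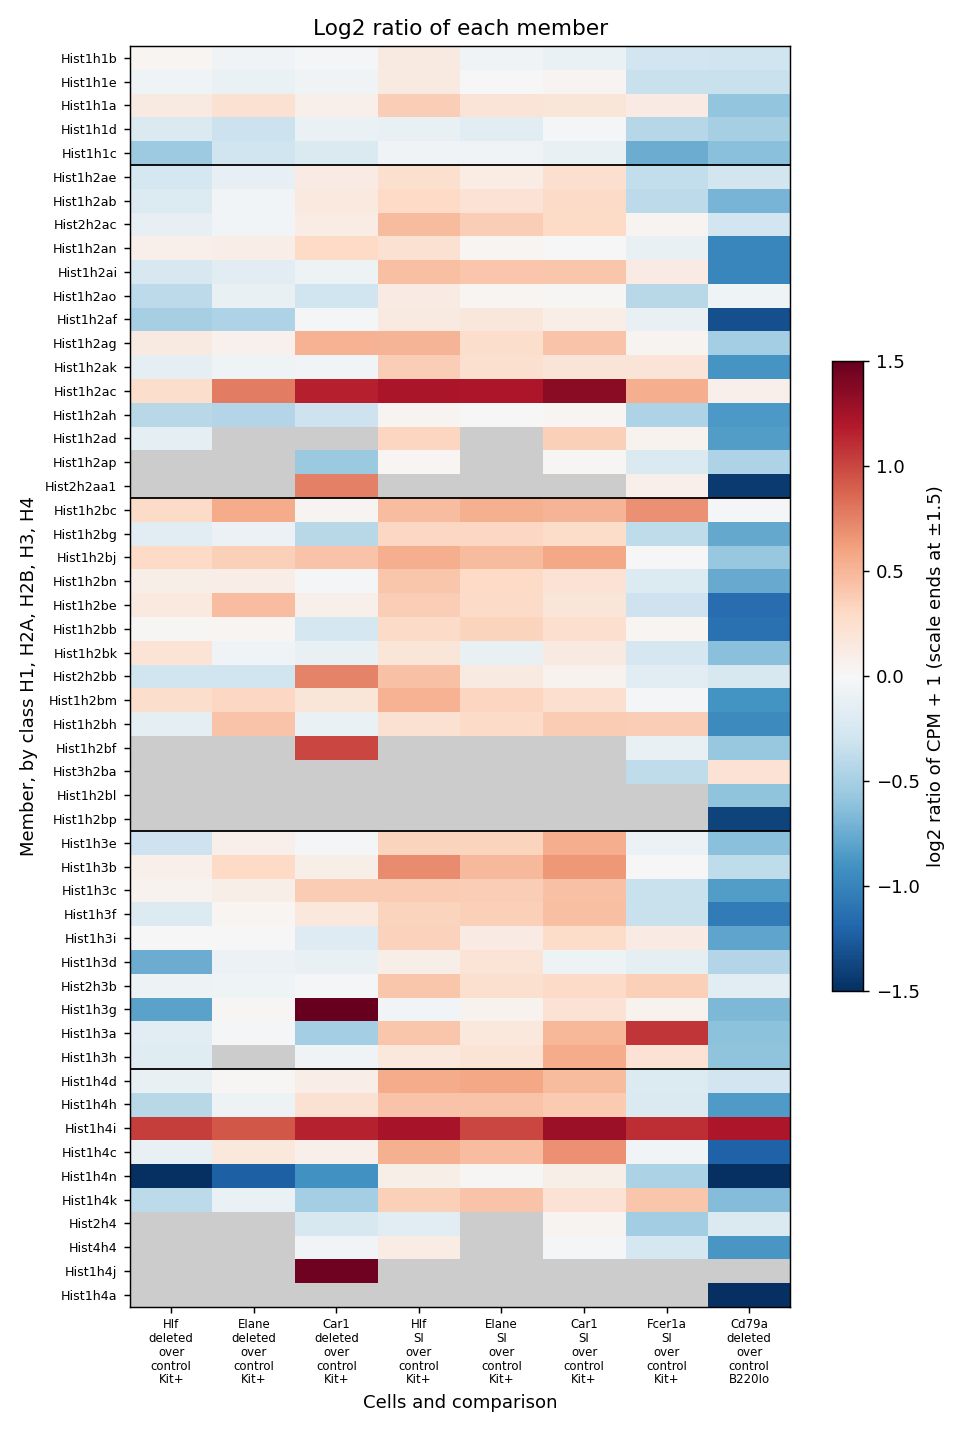
Log2 ratio of CPM + 1 (colour, red higher and blue lower in the first-named library, scale ending at 1.5 each way) for each member with a mean of at least 10 CPM in the comparison, grouped by histone class from H1 at the top to H4 at the bottom. Grey marks a member below 10 CPM. Hist1h4i is red in all 8 columns, Hist1h4n is blue in the 4 deleted columns, and the Cd79a column is blue for most members.

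In Fcer1a cells the SI library was lower than the control, at 5498 against 6307 CPM, a ratio of 0.872 (0.853 to 0.890). The control value came from 127 cells and the SI value from 2340 cells. Here 3 of 49 members were at least 1.5-fold higher and 1 lower, against 6.24% and 7.78% of genes. In cells of this group alone 10 of 51 members were lower, against 9.55% of genes. Without the limit of 10 CPM it was 5 of 65, against 11.7%, and without doublet removal 0 of 49, against 5.99%. Hist1h1c stood at 243 CPM in control and 145 CPM in SI cells, and Hist1h3a at 14.0 and 30.5 CPM. The ratio was 1.02 when no doublets were removed, so its direction depends on that step. Between control and SI Fcer1a cells, erythroid markers stood at 552 and 224 CPM, and granulocyte-monocyte markers at 9412 and 6108 CPM. Summed T and NK cell markers stood at 527 and 41.6 CPM, with 3 of the 5 genes at 0 UMIs in the control cells. The part of these marker differences in the ratio was not tested. Hlf cells that belonged to no other group had a histone ratio of 1.10. The part of the Fcer1a overlap in the Hlf ratio of 1.22 was not tested further.

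The H4 genes Hist1h4i, Hist1h4m and Hist1h4n stood apart between libraries. They are protein-coding H4 genes of chromosome 13, Hist1h4m (ENSMUSG00000069306) at chr13:21811746-21812147 on the plus strand, Hist1h4n (ENSMUSG00000069305) at chr13:21831767-21832196 and Hist1h4i (ENSMUSG00000060639) at chr13:22040636-22041362, both on the minus strand. Hist1h4m lay below the 10 CPM limit and was singled out after its values were seen.

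Hist1h4i stood at 27.0, 23.4 and 27.4 CPM in control Kit+ Hlf, Elane and Car1 cells. In the deleted library it stood at 56.3, 45.4 and 61.9 CPM, and in the SI library at 64.9, 47.7 and 68.1 CPM. Ratios to control were 2.09 (1.74 to 2.49), 1.94 (1.73 to 2.17) and 2.26 (1.75 to 2.88) for deleted cells, and 2.41 (2.22 to 2.61), 2.04 (1.91 to 2.18) and 2.49 (2.29 to 2.71) for SI cells. In Fcer1a cells it was at 36.5 CPM in control and 79.9 CPM in SI cells. Hist1h4i was at least 1.5-fold higher than its reference in all 8 comparisons. These are not repeats, as most share the control Kit+ library as reference and groups of 1 library overlap in cells. The 73 Elane cells of the control B220lo library stood at 40.8 CPM (30.6 to 53.4), above the control Kit+ value and with an interval that held the deleted and SI values.

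Hist1h4m was close to absent from the control Kit+ library, with 26 UMIs over 11051 cells (0.186 CPM). It had 1825 UMIs (16.4 CPM) in the deleted library, 1555 (10.3 CPM) in the SI library and 96 (1.24 CPM) in the control B220lo library. Within the deleted and the SI library the level was similar across cell types, at 16.9, 15.5, 14.2 and 16.4 CPM in deleted Hlf, Elane, Car1 and Cd79a cells. The SI library had 11.4, 9.25, 12.4 and 11.04 CPM in Hlf, Elane, Car1 and Fcer1a cells. Control B220lo Cd79a cells had 0.891 CPM, while the 73 Elane cells of that library had 6.16 CPM (2.66 to 12.1) from 8 UMIs. The smaller groups of that library reached the deleted and SI levels, at 14.0 CPM (5.15 to 30.5) in 40 Hlf, 9.99 CPM (3.67 to 21.7) in 17 Car1 and 15.9 CPM (4.33 to 40.7) in 19 Fcer1a cells, from 4 to 6 UMIs each. Control Fcer1a cells had 0 UMIs, which allows up to 2.11 CPM when 3 counts are taken as the limit of a count of 0, and 2.59 CPM by the exact interval.

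Counted on its own, Hist1h4n was lower in the deleted library, where its near copy Hist1h4m was higher. In SI cells Hist1h4n was close to the control level in Hlf, Elane and Car1 cells but not in Fcer1a cells. It stood at 32.2, 27.0 and 32.5 CPM in control Hlf, Elane and Car1 cells, at 34.4, 27.5 and 34.5 CPM in SI cells, and at 10.3, 10.96 and 16.8 CPM in deleted cells. The ratio to control in deleted cells was 0.321 (0.210 to 0.470) in Hlf, 0.405 (0.326 to 0.499) in Elane and 0.517 (0.310 to 0.811) in Car1 cells. In Fcer1a cells it was at 52.0 CPM (40.8 to 65.2) in control and 37.2 CPM (35.1 to 39.5) in SI cells, a ratio of 0.717 (0.566 to 0.920). In Cd79a cells it was at 15.5 CPM in deleted and 61.4 CPM in control B220lo cells.

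These genes are near copies, which makes their separate counts uncertain. The first 100 bases of each gene, where 5′ reads start, were placed at their best match within the other gene's transcript. By this measure Hist1h4m and Hist1h4n differed by 1 edit and Hist1h4i from either by 2 to 4, and the first 100 bases of Hist1h4m and Hist1h4n differed from the transcripts of the other 10 H4 genes by at least 24. In the other direction, those of the H4 gene Hist1h4b matched within Hist1h4n at 10 edits. Hist1h4m and Hist1h4n stood at 0.186 and 31.0 CPM over all control Kit+ cells and at 16.4 and 15.1 CPM over all deleted cells. Over all SI cells they stood at 10.3 and 31.3 CPM. The lower Hist1h4n count of deleted cells thus came with a higher Hist1h4m count, and how reads were shared between them was not tested. Summed, the 3 genes stood at 57.4 CPM over all control Kit+ cells, 85.1 over deleted, 102 over SI and 81.1 over control B220lo cells. The summed ratio to control was 1.41, 1.42 and 1.55 in deleted Hlf, Elane and Car1 cells, and 1.86, 1.67, 1.91 and 1.45 in SI Hlf, Elane, Car1 and Fcer1a cells. For Cd79a cells, deleted over control B220lo, it was 1.01 (0.977 to 1.05). Over the whole set, the first 100 bases of 30 members matched within another member at 10 edits or fewer.

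Hist1h2ac (ENSMUSG00000069270, chr13:23681467-23683948, minus strand) was the H2A gene that stood apart, and its nearest relative among the members differed by 18 edits over the first 100 bases. In Hlf cells it was at 16.7 CPM in control, 20.3 in deleted and 40.6 in SI cells. In Elane cells it was at 9.34, 16.7 and 23.1 CPM, and in Car1 cells at 10.4, 24.8 and 28.3 CPM. SI over control was 2.42 (2.19 to 2.69), 2.47 (2.24 to 2.73) and 2.71 (2.38 to 3.10). In Fcer1a cells it was at 32.3 CPM in control and 47.5 CPM in SI cells, a ratio of 1.47 (1.10 to 2.02) that did not reach 1.5-fold. The control B220lo library was also above the control Kit+ library, at 26.2 CPM in its 73 Elane cells and at 42.1 and 43.3 CPM in its 40 Hlf and 17 Car1 cells. Among Cd79a cells it was at 37.7 CPM in deleted and 35.6 CPM in control B220lo cells. Its neighbour on the plus strand, the H2B gene Hist1h2bc at chr13:23684199-23692908, stood at 90.5 CPM in control and 125 CPM in SI Hlf cells, and at 84.9 and 137 CPM in Fcer1a cells.

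**Figure D3:**
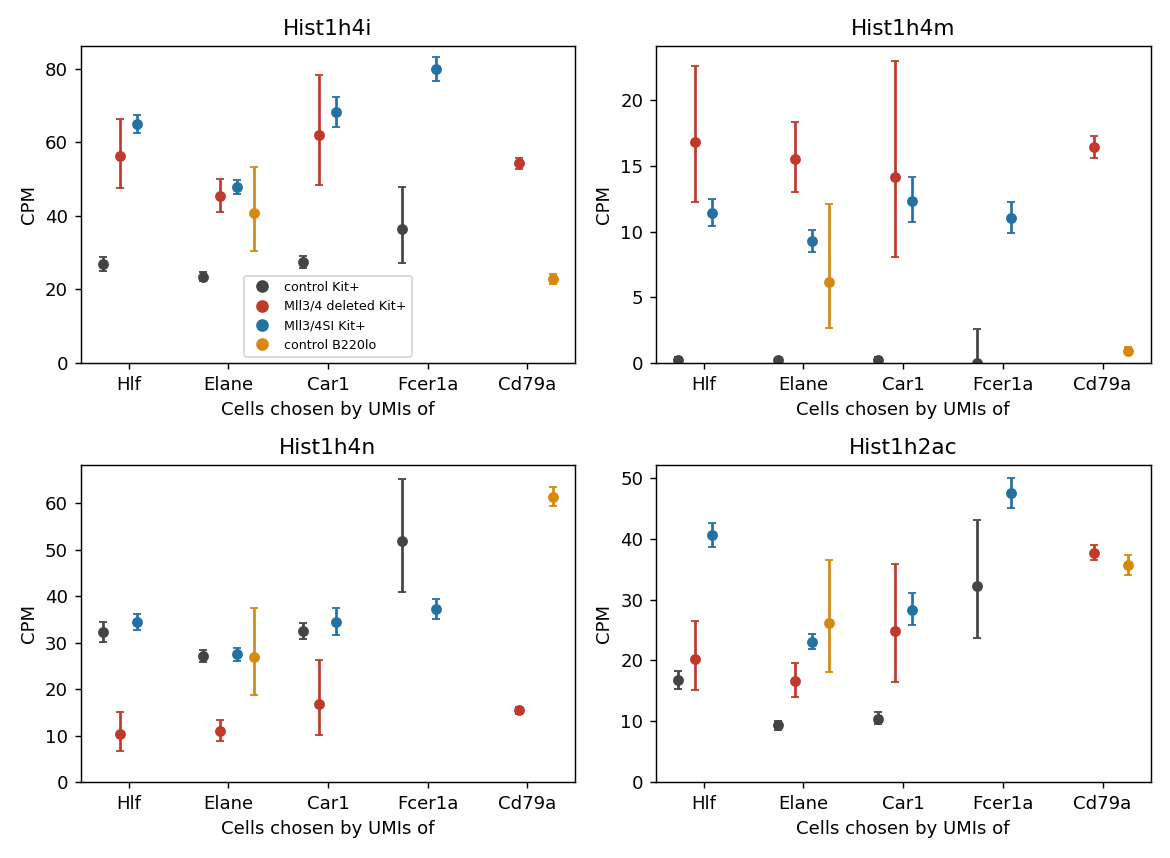
Level in CPM (vertical axes from 0) of Hist1h4i, Hist1h4m, Hist1h4n and Hist1h2ac in the 5 groups of cells (horizontal axis) for each library with at least 50 cells, with 95% counting intervals. Hist1h4m lies near 0 in control Kit+ cells and between 9.25 and 16.9 CPM in deleted and SI cells.

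B-lineage cells filled the deleted Kit+ library, where 12591 of 13747 kept cells were Cd79a cells, and these were compared with the 10839 Cd79a cells of the control B220lo library. Histone transcripts were a smaller share of UMIs in the deleted cells, at 6557 against 9403 CPM, a ratio of 0.697 (0.695 to 0.700). The median cell held 6458 UMIs in the deleted and 3077 in the control B220lo group. The histone UMIs were 642144 in the 12591 deleted and 506750 in the 10839 control B220lo cells. The lower share therefore does not mean fewer histone UMIs per cell. The libraries differ in sort gate as well as genotype, and these cannot be told apart. Here 32 of 52 members were at least 1.5-fold lower and 1 higher, against 17.3% and 16.5% of all genes compared. Of the 32, Hist1h2bl, Hist1h2bp, Hist1h4a and Hist4h4 were below 10 CPM in the deleted cells and passed the limit only through the control B220lo value. The median member's log2 difference was -0.63, beside -0.01 for the median gene.

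The difference held in each class, at 0.760 for H1, 0.673 for H2A, 0.634 for H2B, 0.630 for H3 and 0.705 for H4. Of the largest contributors, Hist1h1b stood at 889 CPM in deleted and 1091 CPM in control B220lo cells, and Hist1h1e at 1072 and 1356 CPM. Hist1h2ab was at 319 and 519 CPM, and Hist1h3c at 171 and 307 CPM. The lowest ratios were those of Hist1h4n, Hist1h4a (5.03 and 16.9 CPM) and Hist2h2aa1 (10.5 and 30.1 CPM). Hist1h4i was the 1 member called higher, at 54.3 and 22.8 CPM, and Hist3h2ba was at 35.5 and 30.5 CPM.

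Mki67 encodes Ki-67, a nuclear protein made in cycling cells and broken down in resting ones, and its UMIs were used to relate histone transcripts to the cell cycle. Each cell was thinned to 2000 UMIs so that depth did not set detection, which left out 199, 455, 125 and 2219 shallower cells of the control Kit+, deleted, SI and control B220lo libraries. In the control Kit+ library the summed members stood at 6522 CPM in 3410 cells with Mki67 and 2478 CPM in 7442 cells without, a ratio of 2.63 (2.60 to 2.67). Without thinning the ratio was 3.94. The SI library gave 2.67 (2.64 to 2.71), the deleted library 3.74 (3.70 to 3.78) and the control B220lo library 2.03 (2.02 to 2.05).

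The histone level was higher at higher Mki67 counts and then levelled off. In control Kit+ cells it was 2478 CPM at 0 Mki67 UMIs, 5568 at 1, 7236 at 2, 8616 at 3 to 4 and 8213 at 5 or more. SI cells ran from 2866 CPM at 0 to 9313 CPM at 3 to 4. Deleted cells started at a similar 2809 CPM and reached 15630 CPM at 5 or more. Control B220lo cells started at 6096 CPM, above those of each Kit+ library, and reached 16286 CPM at 3 to 4.

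**Figure D4:**
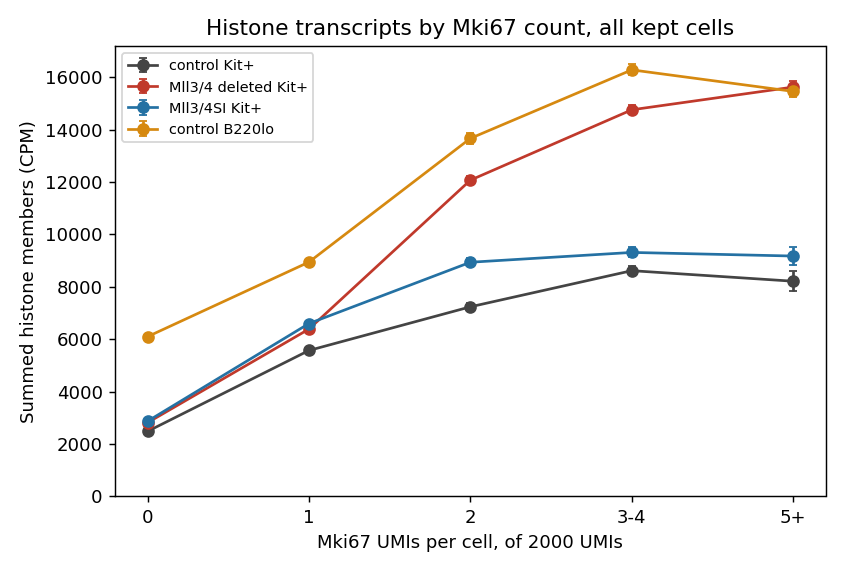
Summed histone level in CPM (vertical axis) by the number of Mki67 UMIs among 2000 UMIs of a cell (horizontal axis), over all kept cells of each library, with 95% counting intervals. At 3 to 4 Mki67 UMIs the control Kit+ and SI lines stand at 8616 and 9313 CPM, and the deleted and control B220lo lines at 14761 and 16286 CPM.

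Histone counts were concentrated in a minority of cells. The tenth of cells with the most histone UMIs held 39.8% of them for control Kit+, 44.9% for deleted, 39.0% for SI and 31.6% for control B220lo cells. The median cell had 4, 5, 4 and 12 histone UMIs of 2000, in the same order, and the highest control Kit+ cell had 120. Cells with 0 histone UMIs were 9.79% (control Kit+), 2.54% (deleted), 5.87% (SI) and 0.312% (control B220lo) of all.

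Cells high in histone transcripts were those with G2/M transcripts more than those with S phase transcripts alone. Each phase was read from the summed UMIs of 20 genes, and cells were split at 5 UMIs per cell. In the control Kit+ library the members stood at 2001 CPM with both lists under 5, 2489 CPM with the S list alone at 5 or more, 6257 CPM with the G2/M list alone and 7875 CPM with both. The deleted library gave 2559, 2232, 10988 and 16104 CPM in the same order, and the control B220lo library 6066, 4618, 13493 and 18001 CPM. Over 10852 control Kit+ cells, the Spearman correlation of histone UMIs per cell was 0.41 with Mki67, 0.49 with the G2/M list and 0.02 with the S list. The G2/M and S values were 0.48 and 0.10 in the deleted, 0.49 and -0.003 in the SI and 0.34 and 0.19 in the control B220lo library, where they lay closest together. These are descriptions across cells of 1 library that share its depth after thinning. The S list differed little between cells with and without Mki67 in 2 libraries. Its mean was 5.85 and 5.38 UMIs in control Kit+ cells and 5.44 and 5.34 in SI cells. It was 5.65 and 3.50 in deleted and 5.82 and 1.49 in control B220lo cells. All cell types were pooled as well, so these values do not place histone transcripts in a phase.

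Most members with enough counts were higher in cells with Mki67. The same share over all genes was not computed, so the counts below do not set the members apart from other genes. Of the 51 members with at least 100 UMIs in control Kit+ cells, 50 had a ratio of cells with to cells without Mki67 whose interval lay above 1. Their median ratio was 2.73, from 1.19 for Hist1h4i to 3.57 for Hist2h3b. In deleted Cd79a cells 56 of 57 did, with a median of 3.17, and in control B220lo Cd79a cells 51 of 55, with a median of 1.77. Hist1h2ap, an H2A gene, had the highest ratio in both, with 26.4 against 1.63 CPM in deleted cells and 38.6 against 3.39 CPM in control B220lo cells. Hist1h2ae followed a similar course, with 1009 and 98.5 CPM in deleted Cd79a cells. Hist1h4a was the lowest, at 5.004 and 4.22 CPM in deleted and 17.4 and 19.6 CPM in control B220lo Cd79a cells.

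**Figure D5:**
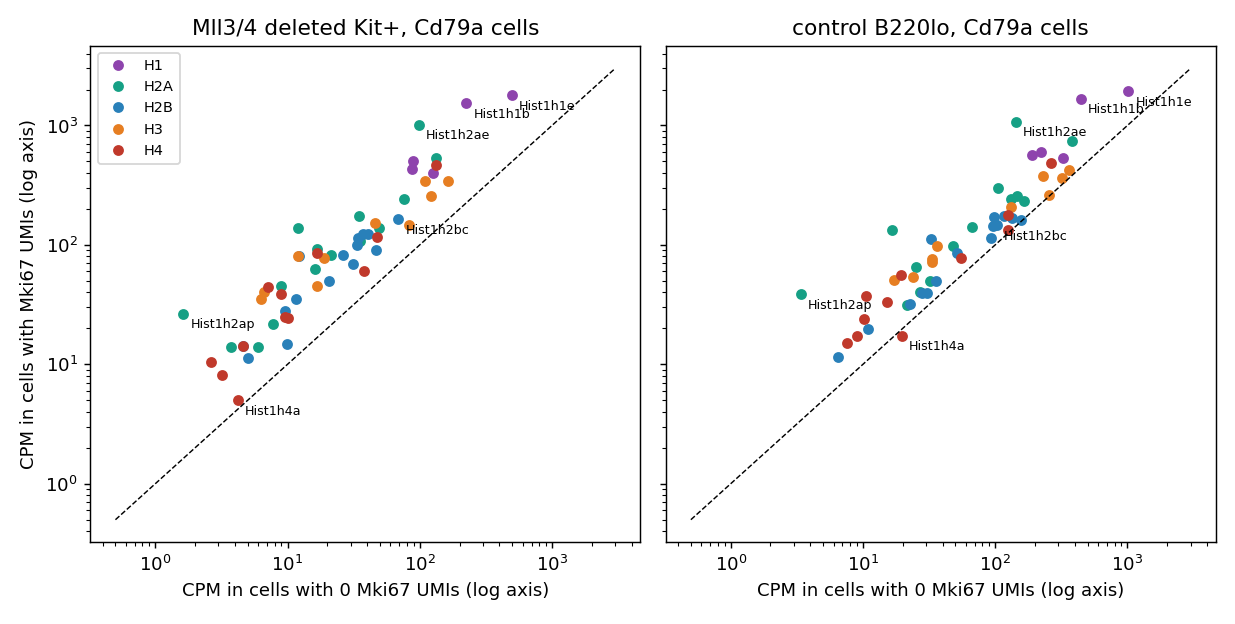
Level of each member with at least 100 UMIs in Cd79a cells with Mki67 UMIs (vertical log axis, CPM) against cells with 0 (horizontal log axis, CPM), at 2000 UMIs per cell, coloured by histone class, for the deleted and the control B220lo library. The dashed line marks equal levels, and nearly all points lie above it, with Hist1h2ap farthest. Hist1h4a, which had the lowest ratio in both libraries, lies just above the line for the deleted and just below it for the control B220lo library.

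The comparisons between libraries were repeated within cells with and without Mki67. For SI over control the ratio was 1.21 (1.18 to 1.24) in Hlf cells with 0 Mki67 UMIs and 1.18 (1.15 to 1.21) in those with Mki67. It was 1.11 and 1.06 in Elane cells and 1.11 and 1.21 in Car1 cells, so the SI level was higher in both classes of each. In Fcer1a cells it was 0.809 (0.739 to 0.886) without and 1.05 (0.988 to 1.12) with Mki67. For deleted over control it was 0.872 and 0.846 in Hlf cells and 1.04 and 0.865 in Elane cells, each without and with Mki67. Deleted Car1 cells were too few when split, with 34 cells at 2794 CPM without and 20 cells at 6300 CPM with Mki67, beside 2597 and 5276 CPM in the control.

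In Cd79a cells the gap between the deleted and the control B220lo library was widest without Mki67. Cells with 0 Mki67 UMIs held 2811 CPM in deleted and 6645 CPM in control B220lo cells, a ratio of 0.423 (0.418 to 0.428). Cells with Mki67 held 10891 and 13300 CPM, a ratio of 0.819 (0.811 to 0.827). The largest difference in CPM without Mki67 was that of Hist1h1e, at 497 and 1013 CPM, followed by Hist1h2ab at 132 and 381 CPM and Hist1h1b at 225 and 445 CPM. By ratio these were not the widest, with Hist1h1e 2.04-fold and Hist1h4n 5.46-fold higher in the control B220lo cells. With Mki67, Hist1h1e, Hist1h2ab and Hist1h1b stood at 1783 and 1937, 537 and 736, and 1532 and 1666 CPM. Cells without Mki67 at this depth include cycling cells in which it was missed, and how many was not tested.

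Genes that make, process and deposit histones are given as whole lists. The lists held 14 genes for transcription and 3′ processing of histone mRNA, 11 histone variants that are made throughout the cell cycle or in special settings, 10 histone chaperones and the S phase and G2/M lists. In SI Hlf, Elane and Car1 cells 0 of 72, 73 and 73 list genes compared passed 1.5-fold in either direction. Of all genes 2.05%, 1.9% and 1.27% were higher and 1.7%, 1.03% and 0.698% lower. Lists of this size would thus hold few calls at those shares. In each of these groups of cells the lowest variant gene was the linker variant H1fx. H1fx was at 95.6 CPM in control and 63.9 in SI Hlf cells, 39.9 and 26.4 in Elane cells, and 42.0 and 29.3 in Car1 cells. In SI Fcer1a cells 3 of 72 list genes compared were lower (4.17%) and 0 higher, against 7.78% and 6.24% of all genes. They were 2 of 10 variants, H1fx at 122 and 31.6 CPM and the linker variant H1f0 at 175 and 104 CPM, and 1 of 12 processing genes, Cpsf2, at 111 and 71.6 CPM. Their summed SI over control ratios in Hlf cells were 1.01 for processing, 1.06 for variants, 1.06 for chaperones, 1.03 for S phase and 1.11 (1.10 to 1.12) for G2/M genes. In Elane cells the S phase list was at 0.988 and the G2/M list at 1.05, and in Car1 cells both were below 1, at 0.959 and 0.975. In SI Fcer1a cells the G2/M list was at 0.840 (0.814 to 0.867) and the histone sum at 0.872. The histone ratio turned to 1.02 without doublet removal, and a link between them was not tested.

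For the deleted library, list genes past 1.5-fold are given beside the shares of all genes. In Hlf cells 2 of 73 compared were higher (2.74%) and 0 lower, against 1.58% and 5.13% of all genes. In Elane cells 2 of 74 were higher (2.7%) and 0 lower, against 0.882% and 2.66%. In Car1 cells 1 of 73 was higher (1.37%) and 1 lower (1.37%), against 2.08% and 4.97%. These list shares rest on 1 or 2 genes each. In Cd79a cells 7 of 73 were higher (9.59%) and 3 lower (4.11%), below the 16.5% and 17.3% of all genes. The variant gene H2afy2, which encodes a macroH2A, was at 7.61 CPM in control and 23.4 CPM in deleted Hlf cells, and at 8.01 and 16.3 CPM in Elane cells, below 10 CPM in the control of both. Ccne2, a cyclin that drives entry into S phase, was at 12.1 and 19.2 CPM in Hlf cells, and Ccne1, another such cyclin, at 10.5 and 16.6 CPM in Elane cells. In Cd79a cells H1fx was at 195 CPM in deleted and 28.5 CPM in control B220lo cells, the chaperone gene Chaf1b at 180 and 39.6 CPM, and Ccne1 at 41.5 and 16.4 CPM. H1f0 was at 228 and 81.6 CPM and Ccne2 at 35.0 and 22.5 CPM. The S phase gene Tyms was at 166 and 85.7 CPM, and the G2/M gene Ube2c at 596 and 364 CPM. Lower in these cells were Cpsf2, at 54.8 and 128 CPM, the S phase gene Uhrf1, at 71.9 and 160 CPM, and the chaperone gene Hira, at 36.1 and 57.5 CPM. In Car1 cells the G2/M gene Bub1 was at 31.7 CPM in control and 53.1 CPM in deleted cells, and Kif23 at 29.5 and 11.5 CPM. In Cd79a cells the G2/M list summed to 1.23 times and the S phase list to 1.07 times the control B220lo level, while the replication-dependent members were at 0.697.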

How the data were processed

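The authors deposited raw UMI counts for each gene in each barcode. They used Cell Ranger 7.1.0 and build mm10, per the submitters' processing notes. The members, lists and groups of cells were chosen with earlier results of these data known. A cell needed 1000 UMIs and 500 genes, and no more than 10% of its UMIs could be mitochondrial. Scrublet (scanpy 1.11.5, expected share 0.08) scored doublets. Its own threshold marked 1166, 0, 1 and 0 barcodes and so did not work in 3 libraries, and a score of 0.25 was used instead. It removed 840 control Kit+, 1168 deleted, 580 SI and 949 control B220lo barcodes.

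UMI counts were summed per group of cells and library and given as CPM. Ratios carry exact conditional binomial intervals, and levels carry exact Poisson intervals. A pseudocount of 1 CPM understates differences of low genes. Thinning to 2000 UMIs was random with a fixed seed. In simulated data, 100% of 200 genes set to a 2-fold difference were recovered in each of the deleted over control Elane (8439 genes) and SI over control Hlf (8900 genes) comparisons. The simulation held counting error only, for genes of at least 10 CPM at the depth of these groups, so this outcome was near certain in advance. It does not cover spread between cells, mice or libraries, nor the smaller deleted Car1 group. The members named are the 3 highest of each histone class, the 3 highest and 3 lowest ratios of each comparison, and those at 0 UMIs. Other named members and genes were singled out after their values were seen, except the highest and lowest of each other list.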

Additional observations from a re-analysis of the deposited data

Results flagged for a closer look

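The ratio of summed histone transcripts pointed in different directions in different groups of cells under the same contrast, and with 1 library per group the difference was not tested. For deleted over control Kit+ cells it was 0.932 in Hlf cells and 1.05 in Car1 cells. For SI over control Kit+ cells it was 1.22 in Hlf, 1.12 in Elane and 1.16 in Car1 cells, but 0.872 in Fcer1a cells. The SI Hlf ratio was 1.10 in cells that belonged to no other group. The Fcer1a value rests on 127 control cells, and without doublet removal it was 1.02, so that all 4 SI ratios then lay above 1.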

How the results depend on the processing

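No paired analysis was possible because there was 1 library per group. Of 140 alternative values, 94 stayed within the counting interval (or within 1.5 times, for counts of members), 45 left it and 1 turned the direction of a ratio whose interval lay clear of 1. The ratio of deleted Elane cells, whose interval held 1, also came to lie above it. Values below are in the order deleted over control in Hlf, Elane and Car1 cells, SI over control in Hlf, Elane, Car1 and Fcer1a cells, and deleted over control B220lo in Cd79a cells. With no doublet removal the ratio of the sum was 0.987, 1.01, 1.10, 1.27, 1.17, 1.19, 1.02 (turned) and 0.721. With the mean of each cell's own CPM it was 0.910, 0.975, 1.12, 1.20, 1.10, 1.12, 0.810 and 0.634. With cells of exactly 1 group it was 0.909 in deleted Hlf cells, 1.10 in SI Hlf, 1.10 in SI Elane, 0.751 in SI Fcer1a and 0.704 in Cd79a cells. Without ribosomal protein and mitochondrial genes in the total it was 0.974 in deleted Elane, 1.20 in SI Hlf, 1.10 in SI Elane and 0.731 in Cd79a cells. With Cd79a cells left in each group it was 0.965 in deleted Elane cells. Without barcodes shared between libraries, an alternative chosen after seeing the data, it was 0.973 in deleted Elane, 1.11 in SI Elane and 0.904 in SI Fcer1a cells.

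Counts of members past 1.5-fold changed as follows. Without a filter on low values, 2 of 65 were higher (1 in the report, 4.42% of all genes) and 7 of 65 lower (3, 8.57%) in deleted Hlf cells. In deleted Elane cells 5 of 65 were higher (2, 2%), and in deleted Car1 cells 2 of 65 were lower (1, 10.5%). In SI Fcer1a cells 5 of 65 were lower (1, 11.7%), and in Cd79a cells 2 of 66 were higher (1, 13.5%). With cells of exactly 1 group, 10 of 47 were lower (3, 8.22%) in deleted Hlf cells and 10 of 51 (1, 9.55%) in SI Fcer1a cells. Without doublet removal, 7 of 46 were higher (3, 2.57%) in SI Hlf and 7 of 46 (4, 1.37%) in SI Car1 cells. In SI Fcer1a cells 5 of 49 were then higher (3, 5.31%) and 0 of 49 lower (1, 5.99%). With a pseudocount of 10 CPM, 1 of 41 was higher (2, 0.488%) in deleted Elane cells. The Mki67 ratio of control Kit+ cells (2.63) was 3.39 at 5000 UMIs per cell, 3.94 without thinning, 3.15 for at least 2 Mki67 UMIs against 0, and 2.45 without doublet removal. The causes of these shifts were not tested.

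Depth limits what can be said of the low members, and 8 members had a mean below 1 CPM. The deleted library left 162 Hlf and 55 Car1 cells, so a single cell can carry a call there. Intervals do not cover the spread between mice, which 1 library per group cannot show.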

Other observations

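The barcodes removed for their doublet score held fewer histone transcripts than the kept cells in the control Kit+ library (3367 against 4062 CPM) and in the control B220lo library (6890 against 8606 CPM). In the deleted library they held more (6741 against 6249 CPM), and in the SI library they were close (4694 against 4768 CPM). In control Fcer1a cells the 18 removed barcodes stood at 3167 CPM, against 6307 CPM in the 127 kept cells.

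Groups under 50 cells entered no ratio. The control B220lo library had 7745 CPM in 40 Hlf cells, 6931 in 17 Car1 cells and 8006 in 19 Fcer1a cells. Cd79a cells stood at 5832 CPM in 47 control Kit+ cells and 6125 CPM in 28 SI cells. The 4 deleted Fcer1a cells stood at 1604 CPM (1245 to 2033). In the 17 Car1 cells of the control B220lo library Hist1h4i was at 108 CPM (83.5 to 138) from 65 UMIs.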
